A study of Mus musculus with 15 samples.

Results

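Transcript levels of 10 SOX transcription factor genes were compared between control and mutant cortical interneurons of the mouse embryo. The genes are *Sox1* and *Sox2* of the SoxB1 group, *Sox4*, *Sox11* and *Sox12* of the SoxC group, *Sox5* and *Sox6* of the SoxD group, and *Sox8*, *Sox9* and *Sox10* of the SoxE group. They were taken by gene name from 2 deposited tables, and they are 10 of the 28391 genes found in either table. Each table was compared on its own, and *Sox6* was also set against the SoxB1 and SoxC genes within each library.

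The study asked how loss of MTG8, a transcriptional co-repressor, or of LHX6, a LIM-homeodomain factor, changes the transcriptome of interneurons derived from the medial ganglionic eminence (MGE). YFP-positive cells were sorted at E14.5 from the cortex of single embryos on a mixed C57BL/6/CBA background, and 15 libraries were analysed. All embryos carried the Nkx2-1-Cre transgene, active in the MGE, together with R26R-YFP, so that YFP marks the lineage rather than a cell stage. The *Lhx6* table holds 4 controls (Lhx6+/+) and 5 mutants (Lhx6-/-), and the *Mtg8* table holds 3 controls (Mtg8+/+) and 3 libraries labelled Mtg8 mutant (Mtg8-/-). Both mutations were germline, and neither is therefore restricted to the sorted cells. The study's methods call controls and mutants littermates. In the library names, *Lhx6* mutant 6 shares its leading code with controls 1 and 2, and mutants 1, 2, 3 and 5 share none with a control. Of the libraries labelled Mtg8 mutant, replicate 2 shares a code with controls 1 and 2 and the others share none, and the labels do not say what a code stands for.

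SOX proteins bind DNA through an HMG box and act together with partner factors, often in sequence. SoxB1 proteins maintain neural progenitors, SoxC proteins are active in newly born and migrating neurons, and SoxE proteins are best known in glia and neural crest. SoxD proteins lack a transactivation domain of their own, and SOX6 is needed for positioning and maturation of MGE-derived interneurons, where it acts downstream of LHX6.

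Depth ranged from 12218422 to 22053032 reads per library. Values are normalized counts, that is reads per gene divided by a size factor of the library. *Lhx6* itself stood at 8441, 5812, 7552 and 7183 in the controls of its table and at 313, 236, 495, 271 and 340.5 in mutants 1, 2, 3, 5 and 6 (log2 fold change -4.48, limma adjusted p = 1.34e-07). *Runx1t1*, the gene of MTG8, was not lower in the libraries labelled Mtg8 mutant than in their controls. It stood at 12845 ± 944 (SD, n = 3) against 8891 ± 1219 (n = 3), with a log2 fold change of 0.54 (limma adjusted p = 0.859). Every library labelled mutant was above every control, as for 4.68% of all genes tested in that table. Those libraries are therefore named by their label throughout. A count over a whole gene does not show whether a lacZ knock-in allele gives a functional transcript. In sorted bulk RNA, fewer cells of a type and less RNA per cell cannot be told apart.

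Sox transcripts covered a wide range in control cells. Per kilobase of exon, *Sox11* was highest in the *Lhx6* controls at 15232 ± 1987 normalized counts per kb (SD, n = 4), followed by *Sox4* at 4941 ± 522. Both encode the SoxC factors of young neurons. *Sox2* (499 ± 71.4 per kb), *Sox9* (345 ± 40.7) and *Sox6* (235 ± 20.7) came next, each separated from the gene before it in every control. *Sox5* (173 ± 38.7 per kb), *Sox12* (132 ± 37.1) and *Sox1* (113 ± 13.7) followed, each overlapping the gene before it. *Sox8* and *Sox10*, which mark oligodendrocyte precursors and neural crest derivatives, were at the bottom with 4.9 ± 3.18 and 2.37 ± 2.36 per kb, and their ranges overlapped.

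In the *Mtg8* controls the same pair led the order, with *Sox11* at 19871 ± 6611 and *Sox4* at 2960.4 ± 254 normalized counts per kb (n = 3). *Sox2* (491 ± 67.3 per kb) and *Sox6* (451 ± 33) overlapped, as did *Sox9* (198 ± 50.8) with *Sox12* (189 ± 34.4) and *Sox1* (121 ± 19.8) with *Sox5* (102 ± 22.1). *Sox8* stood at 4.86 ± 0.761 per kb and *Sox10* at 1.07 ± 1.85. *Sox6* thus stood above *Sox9* in the *Mtg8* controls and below it in the *Lhx6* controls. The tables were normalized separately and their levels were not tested against each other, but scaled to library depth the controls of the 2 tables did not overlap for *Sox4*, *Sox5*, *Sox6* and *Sox9*, and the same was true of 47.1% of the 15629 genes tested in both.

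**Figure D1:**
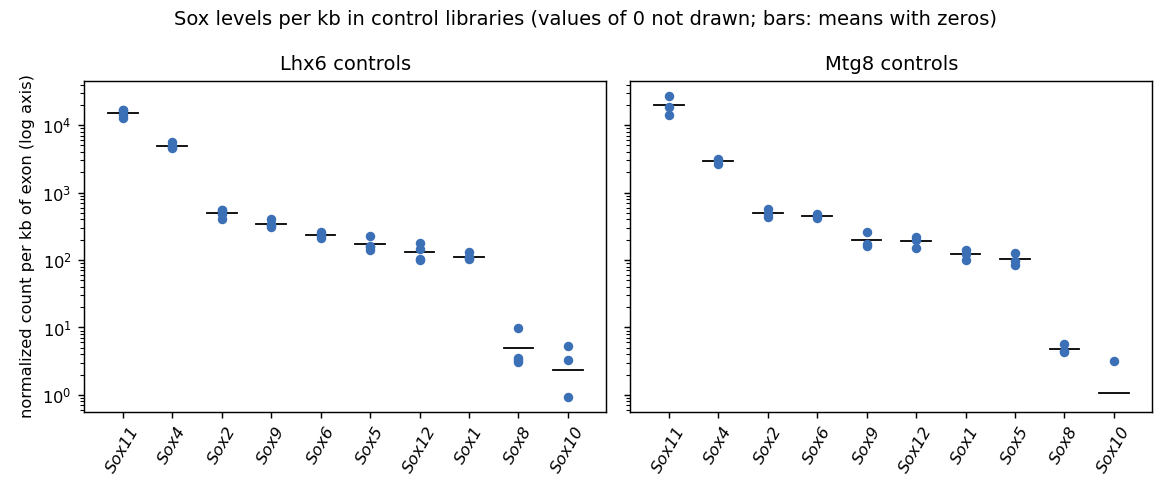
Normalized counts per kb of exon (log axis) of the 10 Sox genes in the control libraries of each table, 1 point per library, with a bar at the group mean. *Sox11* and *Sox4* sit above all other Sox genes in both control groups, and *Sox8* and *Sox10* sit below all others.

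*Lhx6* mutants held more RNA of 1 SoxB1 and 1 SoxC gene than their controls. Of the 9 Sox genes tested in the *Lhx6* table, *Sox1* and *Sox4* rose and none fell (limma, adjusted p under 0.05), where 1.03% of all 16727 genes tested rose and 0.682% fell, 1.71% in all. Both calls were lost when the style of the library name was added as a covariate, a fit that leaves mutant 6 alone against the controls. The log2 fold changes in that fit were 1.10 for *Sox1* and 0.50 for *Sox4*. A block for replicate number ended the *Sox4* call alone (log2 fold change 1.15, limma adjusted p = 0.0743). These numbers were not taken to pair the embryos. For *Sox1*, *Sox2* and *Sox4* every mutant lay above every control, a pattern found in 3.19% of genes tested, and no Sox gene had every mutant below every control (3.03% of genes). In either direction the groups stood apart for 6.22% of genes. Unadjusted p was under 0.05 for 5 of the 9, *Sox1*, *Sox2*, *Sox4*, *Sox9* and *Sox11*, and for 12.7% of all genes. The median log2 fold change of the 9 was 0.51, beside -0.037 over all genes tested.

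*Sox1*, a SoxB1 gene of a single exon on GRCm38 chromosome 8, 12395295 to 12400126, plus strand, counted 492, 512, 640.3 and 534 in control replicates 1 to 4. It counted 2945, 2232, 1308, 1632 and 1161 in mutants 1, 2, 3, 5 and 6. The lowest mutant was above the highest control, while mutants 1 and 2 stood well above the other three. The mean went from 545 ± 66 (SD, n = 4) to 1856 ± 735 (n = 5), a log2 fold change of 1.69 (95% interval 1.16 to 2.22, limma adjusted p = 0.00244).

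The noncoding RNA *Sox1ot*, whose introns span *Sox1* on the same strand and whose deposited exons share no base with it, also rose. It stood at 397, 265, 427 and 237 in the controls and at 1992, 1572, 1358, 1886 and 891 in the mutants (log2 fold change 2.20, limma adjusted p = 0.000404). No mutant overlapped a control, and mutant 6 was lowest for both genes of the locus.

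*Sox2*, the SoxB1 gene required for self-renewal of neural stem cells, lies on chromosome 3, 34650405 to 34652461, plus strand. Controls counted 841, 977, 1142 and 1147 and mutants 3900.3, 2203, 1435, 1814 and 1345. All mutants were above all controls, with mutant 1 far above the rest and mutant 6 closest to the controls. Mutant 6 alone differed by 0.40 from the controls, and by 0.57 from controls 1 and 2, which share its name code (log2). The log2 fold change of 0.95 (0.38 to 1.53) had a limma adjusted p of 0.115, so *Sox2* was not called. DESeq2 on the recovered reads called it (log2 fold change 1.06, adjusted p = 0.0107, with 2.03% of genes higher by that tool), and limma without mutant 6 gave 1.09 (adjusted p = 0.0468, with 2.06% of genes higher), while over all alternatives the adjusted p ran from 0.0107 to 1. *Sox2ot*, the noncoding RNA around *Sox2*, went from 1788 ± 430.0 to 3162 ± 862 (log2 fold change 0.81, limma adjusted p = 0.0796), and its groups overlapped.

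*Sox4*, the SoxC gene whose product activates neuronal genes after cell cycle exit, is a gene of a single exon on chromosome 13, 28948919 to 28953713, minus strand. Its counts were 21834, 22430.3, 27358 and 23136 in the controls. In the mutants they were 65316, 48555, 46167, 51454 and 33411. Mutant 6 was lowest and still above the highest control, and the other four stood well clear of it. The means were 23689.8 ± 2503 and 48981 ± 11439.9, a log2 fold change of 1.02 (0.67 to 1.37, limma adjusted p = 0.00513).

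The stretch just upstream of the deposited *Sox4* exon is shown because *Sox4* is the most abundant Sox gene that rose. It is chr13:28953714-28953949 on the minus strand of GRCm38.p6 (236 bases from RefSeq's promoter table, ending where the deposited exon begins), 5′ to 3′, all in lower case since no searched motif matched. A homeodomain core TAATTA, a SOX core ACAAAG and a GC box GGGCGG were searched on both strands, and none of these letters occur in this window. Windows of the same length hold them at 4.75%, 15.75% and 30.77% of 32851 RefSeq promoters.
Sox4: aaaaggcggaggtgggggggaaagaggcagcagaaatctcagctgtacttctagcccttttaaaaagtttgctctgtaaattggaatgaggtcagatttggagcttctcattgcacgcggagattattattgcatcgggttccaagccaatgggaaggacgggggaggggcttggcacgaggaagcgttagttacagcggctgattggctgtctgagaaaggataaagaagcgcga

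*Sox11*, the most abundant SoxC gene, lies on chromosome 12, 27334264 to 27342574, minus strand. Controls counted 106653, 140408, 139927 and 119403. Mutants counted 207713, 214023, 197085, 152746 and 103709. Mutants 1, 2, 3 and 5 were above all controls and mutant 6 was below all of them, so the groups overlapped. The log2 fold change was 0.43 (0.01 to 0.85, limma adjusted p = 0.389). Without mutant 6 it was 0.60 with an adjusted p of 0.0382, within a range of 0.0382 to 1 over the alternatives.

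*Sox12*, the third SoxC gene (chromosome 2, 152393611 to 152398063, minus strand), stood at 439, 469, 794 and 646 in the controls and at 1589, 1027, 699, 901 and 478 in the mutants. Mutant 1 was again highest and mutant 6 lowest, and the groups overlapped. The log2 fold change was 0.61 (-0.05 to 1.26, limma adjusted p = 0.43), and it was 0.39 without mutant 1.

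Neither SoxD gene passed the test in the *Lhx6* table. *Sox6* (chromosome 7, 115470872 to 116038796, minus strand) counted 3831, 3136, 3331 and 3620.0 in the controls. It counted 3388, 2493, 3553, 2635 and 2151 in the mutants. Mutants 2, 5 and 6 were below every control, whereas mutants 1 and 3 lay within the range of the controls. The mutant mean was 81.7% of the control mean (2844 ± 601 against 3479.6 ± 307), with a log2 fold change of -0.31 (-0.65 to 0.03, limma adjusted p = 0.434). The interval holds 0. The estimate ran from -0.40 to -0.22 with 1 library left out and was -0.69 for mutant 6 alone against the controls. *Sox5*, a close paralog (chromosome 6, 143828425 to 144781977, minus strand), counted 2053, 3297, 2352 and 2226 in the controls and 2215, 2520.4, 1939, 2068 and 2220.0 in the mutants, with control 2 the highest library of the table (log2 fold change -0.16, -0.49 to 0.17, limma adjusted p = 0.668). Without control 2 it was -0.015.

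*Sox6* has several transcription starts in RefSeq, and the sequence before the most upstream one is shown because it borders the start of the deposited gene model. It is chr7:116038797-116038994 on the minus strand of GRCm38.p6 (198 bases, RefSeq, up to the first base of the deposited gene), 5′ to 3′, with 1 match of the SOX core ACAAAG in capitals, beginning at base 138. That core occurs on either strand in 13.43% of promoter windows of this length, and TAATTA (4.17%) and GGGCGG (24.26%) do not occur here. A match of letters is a description and not a binding site.
Sox6: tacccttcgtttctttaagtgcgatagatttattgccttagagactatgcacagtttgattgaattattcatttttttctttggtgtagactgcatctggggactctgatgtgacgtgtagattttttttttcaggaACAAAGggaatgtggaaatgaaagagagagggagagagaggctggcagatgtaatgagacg

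Among SoxE genes, *Sox9*, a gene of radial glia and gliogenic progenitors (chromosome 11, 112782224 to 112787760, plus strand), stood at 1268, 1374, 1403 and 1664 in the controls and at 2256, 2078, 1561, 1752 and 2629 in the mutants. All mutants except mutant 3 were above every control, and mutant 6 was highest. The log2 fold change of 0.51 (0.16 to 0.86) did not pass (limma adjusted p = 0.182). *Sox8* (chromosome 17, 25565892 to 25570686, minus strand) ranged from 5.81 to 42.1 over the 9 libraries, with 0.10 as its log2 fold change (-1.34 to 1.54, limma adjusted p = 0.956), an interval too wide to place its direction. *Sox10* (chromosome 15, 79154908 to 79165240, minus strand) had 32 reads over the 4 controls and 30 over the 5 mutants, with 0 reads in 1 control and 2 mutants, and it fell below the minimum mean of 10 for a test.

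**Figure D2:**
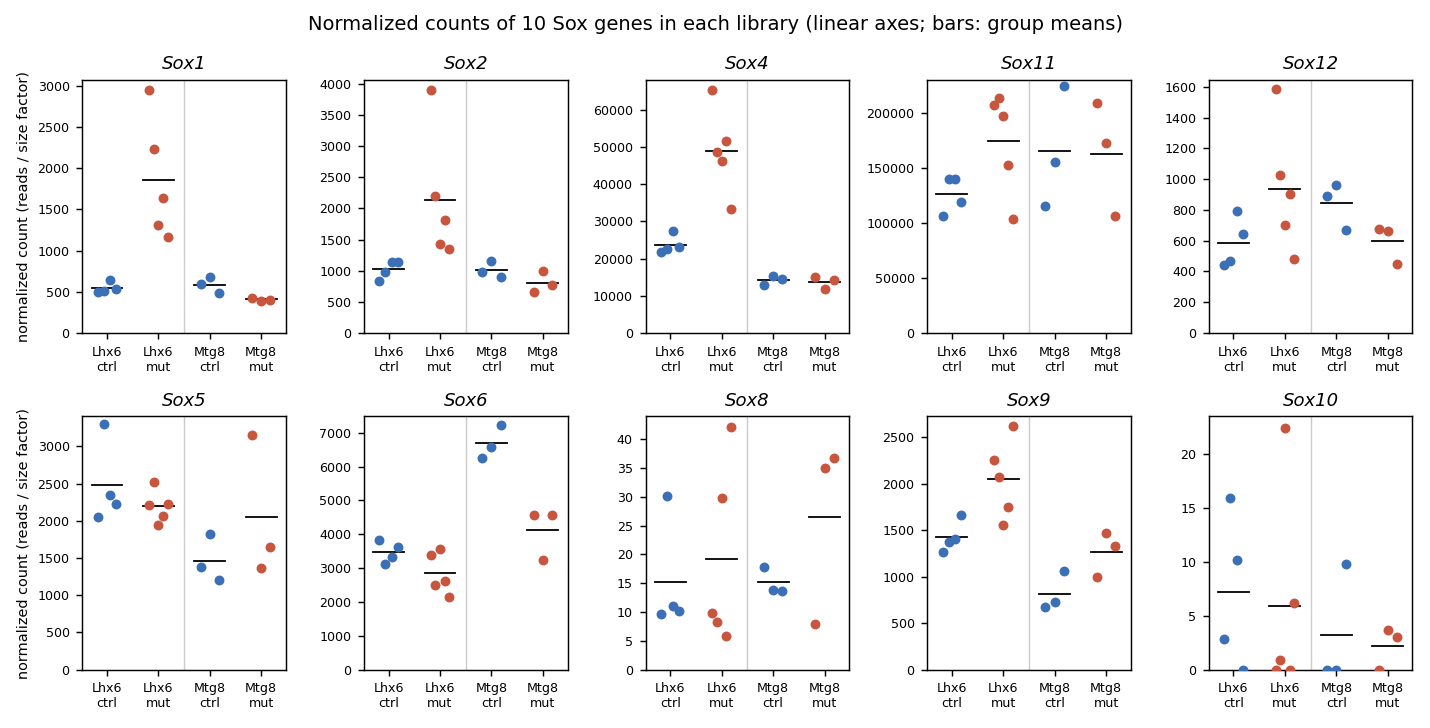
Normalized counts (linear axes) of each Sox gene in the 15 libraries, blue for controls and red for mutants, 1 point per library in replicate order within a group and a bar at the mean. In the *Lhx6* table the mutants stand clear of the controls for *Sox1*, *Sox2* and *Sox4*, and in the *Mtg8* table the libraries labelled mutant stand below the controls for *Sox1* and *Sox6*.

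Among the *Lhx6* libraries, mutant 1 was the highest library of the table for *Sox1*, *Sox2*, *Sox4* and *Sox12*. Mutant 6 was the lowest mutant for *Sox1*, *Sox2*, *Sox4*, *Sox6*, *Sox11* and *Sox12* and the highest for *Sox8* and *Sox9*. Mutant 6 also had the highest summed count of 10 proliferation genes (28135, against 12342 to 17103 in the other mutants and 13194 to 15385 in controls) and of 12 progenitor genes (16053, against 8092 to 12535 and 9468 to 11264). It is the only mutant whose library name carries no date, as in all 4 controls, and mutant 6 alone against the controls differed by 1.10 for *Sox1*, 0.50 for *Sox4*, -0.28 for *Sox11*, -0.69 for *Sox6* and 0.89 for *Sox9* (log2, 1 library). In the fit with the style of name, neither *Sox1* (limma adjusted p = 0.504, with 4.22e-09 to 0.504 over all alternatives) nor *Sox4* (0.784, with 1.92e-06 to 0.784) was called, and style and genotype cannot be told apart for the other four. Set against controls 1 and 2 alone, with which it shares a name code, mutant 6 differed by 1.21 for *Sox1*, 0.59 for *Sox4*, -0.24 for *Sox11*, -0.69 for *Sox6* and 0.99 for *Sox9*. This comparison was added after the data were seen, and with 1 mutant library it tests no difference between genotypes.

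In the *Mtg8* table no Sox gene passed the test, and 0% of the 16132 genes tested did (limma). Unadjusted p was under 0.05 for 3 of the 9 Sox genes tested, *Sox1*, *Sox6* and *Sox9*, and for 5.49% of all genes. DESeq2 and edgeR on recovered reads also called none of the Sox genes, where DESeq2 called 21 genes higher (0.0817% of all genes) and 10 lower. The main test thus called fewer genes here than the study's own test. Failing it does not show that a gene is unchanged. *Sox1* and *Sox6* had every library labelled mutant below every control, as did 5.52% of genes, and none had all above (4.68% of genes). In either direction this pattern was found in 10.2% of genes. The median log2 fold change of the 9 was -0.061, beside -0.013 over all genes tested.

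*Sox6* was the member with the smallest p. Controls 1, 2 and 4 counted 6264, 6591 and 7227. The libraries labelled Mtg8 mutant 2, 3 and 4 counted 4569.8, 3227 and 4584. All of these were below the lowest control, with replicate 3 the lowest. The mean was 61.6% of the control mean (4127 ± 779 against 6694 ± 489.7, SD, n = 3 each), a log2 fold change of -0.71 (-1.12 to -0.30). Its limma unadjusted p was 0.00246 and its adjusted p 0.769, with a range of 0.121 to 0.9998 over the alternatives. Replicate 2 alone against controls 1 and 2, which share its name code, differed by -0.49 (log2, 1 library). The paper itself reports unchanged SOX6 expression after loss of MTG8, in younger embryos with a conditional *Mtg8* deletion. Age, allele and method there differ from the RNA counts here, and the 2 results were not tested against each other. Of 12 lineage transcription factors of the MGE found in this table, 11 were tested, none passed, and *Lhx6* (log2 fold change -0.24), *Satb1* (-0.61), *Cux2* (-0.31) and *Dlx1* (-0.67) likewise had all 3 libraries below all controls, as 5.52% of all genes tested did.

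SoxB1 genes did not pass either. *Sox1* counted 596, 674 and 483 in the controls and 426, 391 and 407 in the libraries labelled mutant. The groups did not overlap, and the log2 fold change was -0.51 (-0.98 to -0.03, limma adjusted p = 0.859). *Sox2* counted 975, 1161 and 891 against 660.4, 987 and 764, with overlap (log2 fold change -0.34, -0.81 to 0.14, limma adjusted p = 0.867), and the fold change was -0.21 without replicate 2. *Sox1ot* went from 445 ± 131 to 359.7 ± 189.8 with overlap (log2 fold change -0.40, limma adjusted p = 0.896).

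SoxC values overlapped for all members. *Sox4* was 12846, 15209 and 14530.0 in the controls and 14999, 11797 and 14132 in the libraries labelled mutant (log2 fold change -0.06, -0.42 to 0.30), an interval that holds 0 and leaves out an increase of more than 0.30. *Sox11* varied widely within each group (115809, 155272 and 224364 against 209227, 172967 and 106656), and its log2 fold change was -0.02 (-0.60 to 0.56). These intervals bound the difference and do not show that the groups are alike. *Sox12* stood at 892, 965 and 671 against 679, 664 and 449, with all but control 4 above the libraries labelled mutant (log2 fold change -0.50, -1.02 to 0.01, limma adjusted p = 0.859), and without replicate 4 the fold change was -0.31.

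*Sox5* counted 1379, 1817 and 1201 in the controls and 3156, 1362 and 1654 in the libraries labelled mutant, where replicate 2 alone was above all controls (log2 fold change 0.41, -0.22 to 1.04). Without replicate 2 the fold change was 0.056, and without replicate 3 it was 0.66. *Sox9* counted 671, 726 and 1059 against 999, 1467 and 1329, overlapping through control 4 and replicate 2 (log2 fold change 0.64, 0.12 to 1.15, limma adjusted p = 0.859). *Sox8* counted 17.9, 13.9 and 13.7 against 7.93, 34.9 and 36.7 (log2 fold change 0.52, -0.76 to 1.80), with 0.16 to 1.20 when 1 library was left out, the highest without replicate 2. *Sox10* stood at 0, 0 and 9.78 against 0, 3.68 and 3.06 and was not tested.

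**Figure D3:**
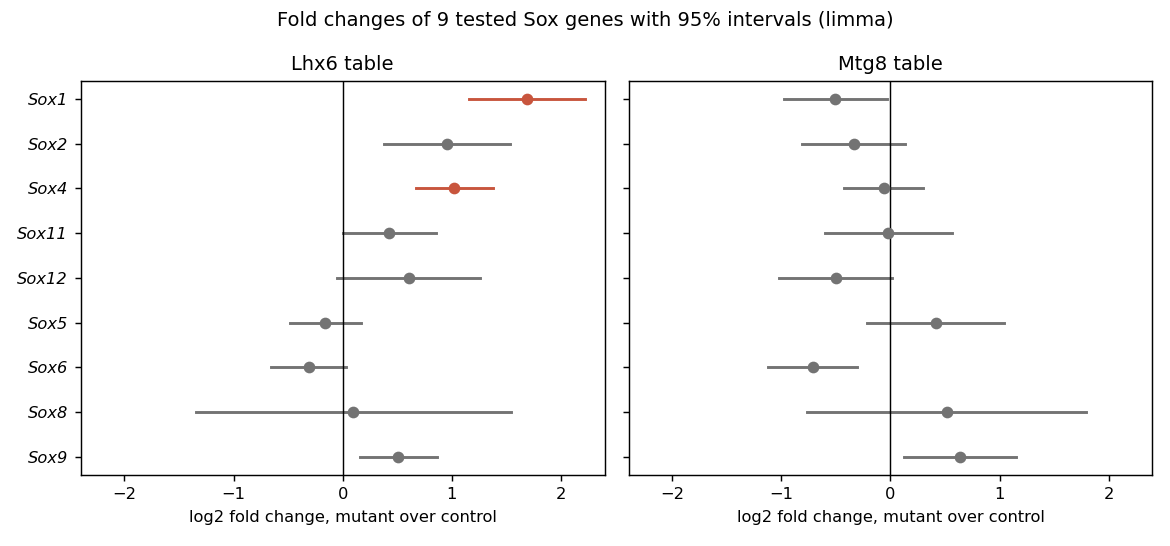
Log2 fold change of mutant over control for the 9 tested Sox genes in each table, with 95% intervals from limma, in red where the adjusted p is under 0.05. In the *Lhx6* table *Sox1* (1.69) and *Sox4* (1.02) are in red, and in the *Mtg8* table none is, with *Sox6* lowest at -0.71.

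*Sox6* was then expressed relative to SoxB1 and SoxC genes in the same library, as a log2 ratio in which the size factor cancels but for the pseudocount of 1. In the *Lhx6* table the ratio to *Sox1*, *Sox2*, *Sox4* and *Sox11* was below every control in every mutant, which is 4 of the 5 ratios taken. The same held for the ratio of *Sox6* to 8.08% of all genes tested. *Sox1*, *Sox2* and *Sox4* themselves had every mutant above every control, so their ratios are no separate support for a change in *Sox6*. The ratio to *Sox1* was 2.96, 2.61, 2.38 and 2.76 in the controls and 0.20, 0.16, 1.44, 0.69 and 0.89 in the mutants, a difference of means of -2.0. *Sox6* had several times the counts of *Sox1* in control cells and came close to it in mutants 1 and 2. The *Sox6* to *Sox4* ratio was -2.51, -2.84, -3.04 and -2.68 in the controls and -4.27, -4.28, -3.70, -4.29 and -3.96 in the mutants (-1.33), with mutant 3 nearest the controls. Differences for the other three were -1.27 for *Sox2*, -0.74 for *Sox11* and -0.92 for *Sox12*, the last with overlap.

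Among the *Mtg8* libraries 1 of the 5 ratios separated the groups. The *Sox6* to *Sox4* ratio was -1.04, -1.21 and -1.01 in the controls and -1.71, -1.87 and -1.62 in the libraries labelled mutant (-0.65). The ratio of *Sox6* to 54.5% of all genes tested separated the groups in that direction, so that this pattern was common there. Differences were -0.21 for *Sox1*, -0.38 for *Sox2*, -0.69 for *Sox11* and -0.21 for *Sox12*, all with overlap. With 1 library left out these ran from -0.33 to -0.022 for *Sox1* (least without control 4), from -0.59 to -0.049 for *Sox2* (least without the library labelled mutant 3) and from -1.06 to -0.45 for *Sox11*. The *Sox12* ratio ran from -0.49 to 0.046 and turned sign without the library labelled mutant 3 (0.046) and without control 4 (0.0012). Without the library labelled mutant 4 the groups no longer overlapped for *Sox11* and *Sox12*. Both terms of a ratio can move it. The log2 fold change of *Sox6* was -0.31 and that of *Sox4* 1.02 in the *Lhx6* table, against -0.71 and -0.06 in the *Mtg8* table.

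**Figure D4:**
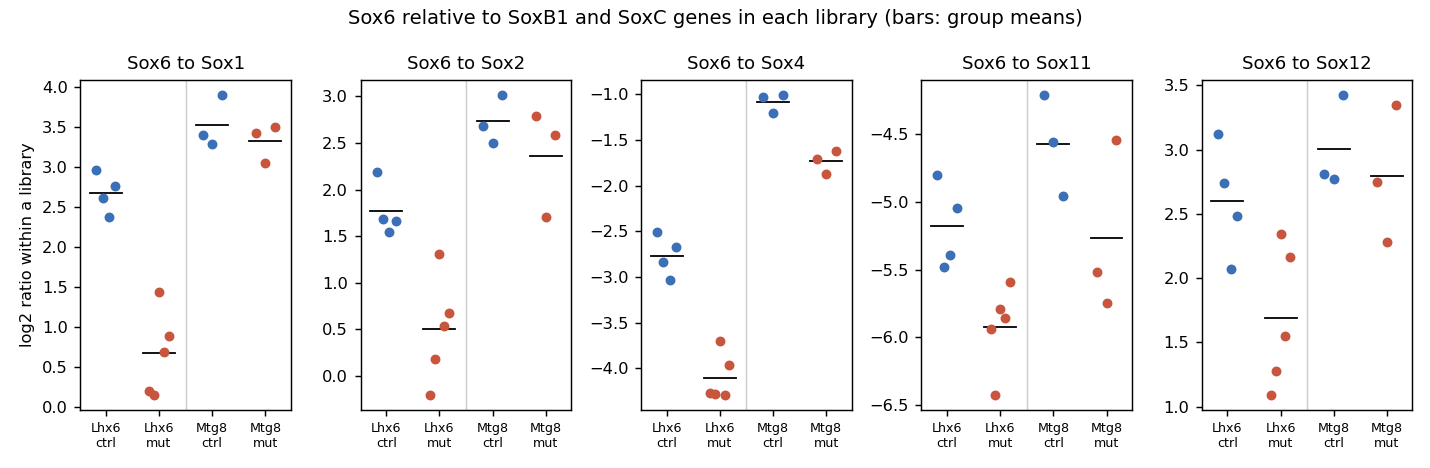
Log2 ratio of *Sox6* to each SoxB1 and SoxC gene in each library (linear axes), blue for controls and red for mutants, with a bar at the group mean. All *Lhx6* mutants lie below all controls for *Sox1*, *Sox2*, *Sox4* and *Sox11*, and in the *Mtg8* table the groups separate for *Sox4* alone.

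Of the other Sox genes, *Sox21* and *Sox13* were abundant enough to test in the *Lhx6* table and *Sox21* alone in the *Mtg8* table, and none passed. *Sox21*, an antagonist of SoxB1 factors, went from 80.3 ± 36.5 to 149 ± 97.8 in the *Lhx6* table with overlap (log2 fold change 0.64, limma adjusted p = 0.659).

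Neural progenitor genes, the setting in which SoxB1 factors are known, did not pass the test in the *Lhx6* table (0 of 12 tested). *Msi1* had every mutant above every control (log2 fold change 0.75, limma adjusted p = 0.198), while *Fabp7* (0.077), *Vim* (0.30) and *Slc1a3* (-0.024) overlapped. None of 10 proliferation genes passed, with *Ccnd2* at 0.20 and *Top2a* at 0.11. Among 10 immature neuron genes, *Elavl4*, an RNA-binding protein gene of neurons, rose (log2 fold change 0.43, limma adjusted p = 0.0438) and 9 did not pass. Among transcription factor genes of the MGE lineage, *Dlx5* (1.02, adjusted p = 0.000719) and *Dlx6* (1.66, adjusted p = 0.000979) rose, and *Satb1* (-1.56, adjusted p = 0.000645) fell with *Lhx6*.

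No gene of these lists passed in the *Mtg8* table. The summed count of progenitor genes ran from 6342 to 8104 in the controls and from 9024 to 13151 in the libraries labelled mutant, with *Nes* and *Vim* above all controls in each, and that of proliferation genes from 10786 to 11883 and from 13204 to 15292, with 5 of 10 genes above in each, where 4.68% of all genes tested were. *Sox1* and *Sox2* had log2 fold changes below 0, and *Sox9* one above 0. The part of progenitor content in the *Sox6* and *Sox9* values was not tested.

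Markers of other cell types were read in the same way. Of 4 astrocyte markers tested in the *Lhx6* table, *Slc1a2*, a glutamate transporter gene, rose (log2 fold change 2.46, limma adjusted p = 1.13e-05), and *Aldoc*, *Gja1* and *Aldh1l1* had log2 fold changes of -0.23, -0.29 and -0.98. The sum of the list was 1839 to 2134 in controls and 2832 to 3834 in mutants. *Slc1a2* alone went from a mean of 297 to one of 1679, while the means of *Aldoc* (1325 to 1162) and *Gja1* (365 to 339.8) were lower in mutants. Oligodendrocyte lineage markers (0 of 6 called) summed to 205 to 241 in controls and 211 to 550.4 in mutants. Mutant 3 had the highest of these sums and also the highest *Sox10* value. Pyramidal lineage markers (0 of 10 called) summed to 16647 to 22202 in controls and 13168 to 18092 in mutants. Control 2 had the highest of these sums and also the highest *Sox5* value. Endothelial, mural and microglial lists had 0 called of 3, 6 and 5, with sums of at most 1118 and with *Cldn5* and *Col1a1* at 0 reads in at least 1 library of each group, and 5 red blood cell genes had 0 called with sums of 5966 to 58627 in controls and 1798 to 20412 in mutants.

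The same lists also had 0 called in the *Mtg8* table. *Emx1* and *Neurod2*, pyramidal lineage genes, were above all controls in each library labelled mutant, as 4.68% of all genes tested were. All 10 pyramidal lineage genes had log2 fold changes above 0 (median 0.49, beside -0.013 over all genes tested). Their sum was 5709 to 13949 in controls and 8908 to 22448 in the libraries labelled mutant. Replicate 2 of the latter had the highest of these sums and also the highest *Sox5* value. The 8 oligodendrocyte lineage markers tested also all had log2 fold changes above 0 (median 1.61). Oligodendrocyte lineage markers summed to 260.2 to 560.5 and 323 to 878, astrocyte markers to 1696 to 2157 and 2016 to 2551, and red blood cell genes to 10849 to 27181 and 15498 to 31676. Endothelial, mural and microglial sums stayed at or below 901 in both groups. The part of these cell types in the Sox values was not tested in either table.

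Genes whose values ran closest to each member over all 15 libraries were ranked by the Euclidean distance of log2 values, centred on the controls of each table, among 15629 genes tested in both. For *Sox1* these included *Slco3a1* (distance 1.01) and *Plxnc1* (1.08), both of which rose in the *Lhx6* table with log2 fold changes of 1.46 and 1.92. For *Sox4* they were *Tcf20* (0.39), *Foxo3* (0.53) and *Kat6b* (0.65), which also rose there, by 0.99, 0.94 and 1.12. The centred values keep the difference between groups, so genes close to a member share its fold changes by construction. *Sox6* was closest to *Atp8a2* (0.72), *Syt1* (0.76) and *Tmtc4* (0.77), none of them called in either table, with log2 fold changes of -0.60, -0.57 and -0.42 in the *Mtg8* table. *Sox2* was closest to *Zbtb39* (0.74), *Arid1b* (0.87) and *Impad1* (0.88), and *Sox11* to *Agpat5* (0.85), *Aebp2* (0.95) and *Cdc42ep2* (1.01), again none of them called.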

How the data were processed

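YFP-positive cells of single embryos were processed as separate RNA-seq libraries with a low-input cDNA kit and Nextera XT, neither of which marks strand. Replicates are thus separate embryos, and their number limits precision. The authors used fastp 0.20.1 for trimming, STAR 2.7b for alignment and featureCounts 1.6.4 for counting, with GENCODE annotation of GRCm38.p6 and without sex-linked genes, so that X-linked and Y-linked Sox genes were not analysed here. The signal deposited for each gene and library is the count divided by DESeq2's size factor, set separately in each of the 2 tables. The tables also hold the authors' fold changes and p-values, which were not used.

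Every deposited value was a whole multiple of the value of 1 read (100% within 0.01 of a read), and reads were recovered from these steps. Differences were tested in each table alone by limma 3.58.1 under R 4.3.3, with its trend option, after adding a pseudocount of 1 and taking log2. Genes whose mean normalized count reached 10 were kept, and p-values were two-sided, with Benjamini-Hochberg adjustment over all genes tested and a threshold of 0.05. Fold changes are on this scale and understate changes of low genes. Intervals are 95%. The study's own test, DESeq2 (1.42.0), and edgeR (4.0.16), run on recovered reads, were alternatives, beside other pseudocounts (0.5, 10), other filters (none, a mean of 50), other scalings (TMM, equal totals), limma with no trend, a replicate block, a covariate for dated or undated library names, and each library left out in turn. A block for the code that begins a library name was added after the data were seen, and it compares 1 mutant library with 2 controls in each table. Ratios of *Sox6* and likeness were described without a test.

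The members, lists and tests were chosen with earlier results of these data known. Named genes were all members, *Lhx6* and *Runx1t1*, called genes or some of the most abundant genes of each list, genes separating the groups (named after their values were seen) and the 3 genes closest to *Sox1*, *Sox2*, *Sox4*, *Sox6* and *Sox11*, except for some genes that are not reported here. Of 10 members, 8 matched RefSeq's promoter table. Deposited exons of *Sox5* (9.25% of its bases, *Sox5os1*) and *Sox8* (10.6%, *2810468N07Rik*) overlap a gene on the opposite strand, and without strand their reads cannot be told apart.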

Additional observations from a re-analysis of the deposited data

Results flagged for a closer look

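*Sox8* in *Lhx6* control 2 stood at 30.1 normalized counts, apart from the 9.61 to 11.1 of the other 3 controls. *Sox10* in *Lhx6* mutant 3 stood at 22.4, apart from the 0 to 6.19 of the other 4 mutants. Both rest on few reads, 34 and 24. Of the 20 sets of 4 or 5 *Lhx6* libraries examined for 10 genes, these 2 had a sample that far out, and chance alone marks about 1 in 20.

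*Sox1* lay on opposite sides of the controls in the 2 tables. Every *Lhx6* mutant was above every control of its table (log2 fold change 1.69), as 3.19% of genes were. Every library labelled Mtg8 mutant was below every control of its own (-0.51), as 5.52% of genes were. The second difference did not pass the test (limma adjusted p = 0.859, with 0.254 to 0.9998 over the alternatives, the lowest from a fit with 1 mutant library against 2 controls). These are different mutations in separately normalized tables, and the difference between them was not tested. The share of all genes that lie on opposite sides in this way was not counted.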

How the results depend on the processing

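The number of Sox genes called in the *Lhx6* table (2) was 1 with a replicate block, 3 by DESeq2 (*Sox2* added), 0 with the covariate for dated library names and between 2 and 4 with 1 library left out, the 4 arising without mutant 6, when *Sox2* and *Sox11* were also called. A block for the shared name code gave 1, with *Sox1* no longer called (log2 fold change 1.21, limma adjusted p = 0.0773) and *Sox4* close to the threshold (0.59, adjusted p = 0.0494), but it compares 1 mutant library with 2 controls in each table, and the name style compares mutant 6 with the 4 *Lhx6* controls, so that neither tests the genotypes there. In the *Mtg8* table both name styles hold controls and mutants. In the *Mtg8* table the number of Sox genes called was 0 under every alternative run, leave-one-out included. The replicate block took *Sox4* to an adjusted p of 0.0743 at a log2 fold change of 1.15, and *Sox6* to -0.14. Over all genes of the *Lhx6* table, 172 rose and 114 fell, against 49 and 37 with the block, 43 and 45 with the name code, 15 and 42 with the name style, 540 and 271 by DESeq2, 344 and 147 without mutant 6, and 104 and 55 at the least with another library left out (control 1). In the *Mtg8* table, 0 and 0 became 88 and 12 with the block, 8 and 7 with the name code, 21 and 10 by DESeq2 and 82 and 4 without the library labelled mutant 2. Replicate numbers were not taken to pair the embryos, with correlations of -0.15, 0.0018 and 0.072 over 3 pairs and of 0.14 and 0.16 over 2.

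Fold changes that reversed were all uncalled. *Sox8* in the *Lhx6* table (0.099) was -0.12 with the block and -0.27 to 0.46 with 1 library left out. *Sox11* and *Sox12* there were -0.28 and -0.25 with the name style, and equally so for mutant 6 alone, by construction, and *Sox11* was -0.24 with the name code. In the *Mtg8* table *Sox4* and *Sox11* were 0.011 and 0.050 with equal totals and -0.13 to 0.040 and -0.25 to 0.26 with 1 library left out, and the *Sox6* to *Sox12* ratio was -0.49 to 0.046. With the name code, which compares replicate 2 with controls 1 and 2, *Sox4*, *Sox8* and *Sox11* were 0.10, -0.91 and 0.64 there. Other causes were not tested. *Sox8* and *Sox10* rest on few reads, and no alternative varied the depth.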

Other observations

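Controls of the 2 tables, nominally alike in genotype, differed for several Sox genes in CPM, that is reads scaled to library depth. *Sox4* was 1562 ± 166 in the *Lhx6* controls (SD, n = 4) and 759 ± 49.5 in the *Mtg8* controls (n = 3), a ratio of 0.486, and *Sox5* (0.479) and *Sox9* (0.464) were lower in a like proportion. *Sox6* went the other way, at 229 ± 18.8 and 358 ± 15.3, a ratio of 1.56. These 4 genes did not overlap between the control groups, and *Sox1*, *Sox2*, *Sox8*, *Sox10*, *Sox11* and *Sox12* did. Of the 15629 genes tested in both tables, 47.1% did not overlap either. The tables were made separately and no test was run across them, so that *Sox6* levels are not comparable between the libraries labelled Mtg8 mutant and the *Lhx6* controls.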
